A study of Homo sapiens with 12 samples.

Results

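The kinetochore and centromere genes are 39 protein-coding genes taken by symbol from the gene table. They encode the centromeric histone and its loading factors, the constitutive centromere-associated network (the inner kinetochore), the NDC80, MIS12 and SKA complexes with KNL1, the outermost layer called the corona, the chromosomal passenger complex and the shugoshins. They are 39 of 58735 genes in the table and of 19951 protein-coding ones. A mean of at least 1 FPKM (a level corrected for gene length and library size) over the 12 libraries was needed for a test, and 35 members had it. OIP5, KNL1, CENPP and SGO1 were below it and are described by their values.

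The kinetochore is the protein assembly that joins a chromosome to spindle microtubules in mitosis. It is built on nucleosomes that carry the histone variant CENP-A, it holds the microtubule through the NDC80 complex, and it recruits the spindle checkpoint until every chromosome is attached. Many of its genes are transcribed mainly in late S phase, G2 and mitosis, through promoter elements that the DREAM and MuvB complexes read, while other subunits are made throughout the cycle. The members were therefore split, from general knowledge of the cell cycle but with earlier results of these data known, into 29 regulated genes, 7 constitutive genes (CENPC, CENPP, CENPT, MIS12, NSL1, PMF1 and SKA2) and 3 of uncertain class (CENPO, CENPQ and MIS18A).

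The cells were MSTO-211H, an established line from a human mesothelioma, which grew in suspension with growth factors. The submitters describe these cells as mesothelioma-initiating. Each of 4 groups had 3 libraries, and RNA was collected 48 h after the exposure. Con received vehicle and a sham exposure, and IR received vehicle and 4 Gy. Rx received 10 µM of a compound that the labels call QTP with a sham exposure, and Combo received 10 µM QTP with 4 Gy. These last descriptions were reached by elimination, since the labels list 4 arms and the titles Con and IR account for the arms without QTP. The line stands for 1 tumour, and nothing in the labels ties the libraries of a group to separate cultures. Each p-value therefore rests on how these libraries vary, and that variation may be technical.

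Recovered reads per library ran from 13188257 to 18630958, with the Combo libraries between 17441486 and 18630958 and the Con libraries between 13188257 and 16269195. Mitochondrial genes took 6.73 to 10.5% of reads. Of the mesothelial markers, KRT8, KRT18, MSLN, CALB2 and BNC1 were above 1 FPKM, while WT1 averaged 0.955 FPKM, LRRN4 and UPK3B were lower still, KRT19 averaged 0.0502 FPKM and PDPN was listed at 0. Of 12 immune, endothelial, epithelial and fibroblast markers, 10 averaged under 0.1 FPKM, and LUM (4.98 FPKM) and PDGFRB (1.55 FPKM) were above 1. The largest mitochondrial share and the smallest number of detected genes (23102) were both in IR 3, and Combo 3 held the lowest value of 18 of the 29 regulated members, so counts are also given without both.

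The members were expressed at modest levels. Their means over all libraries ran from 0.588 FPKM (SGO1) to 11.1 FPKM (CENPT), with a median of 3.28 FPKM, and a member rested on between 10 reads (OIP5) and 1263 reads (CENPT) in a library. For 12 members, a gene above the filter overlaps the member in the annotation. The counting was not stated to use strand, so some of their reads may belong to the neighbour. CENPA overlaps SLC35F6 on the same strand, ZWILCH overlaps RPL4, and CENPT overlaps NUTF2 and THAP11.

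Promoter sequences are shown for 9 members, because the elements named above are known from promoters of G2 and mitosis genes and their letters can be looked for in both classes. They come from RefSeq (GRCh38.p14), run from 150 bases before the annotated start to 20 bases after it, and are written 5′ to 3′ on the gene's own strand. Capitals mark TTTGAA, the core of the cell cycle genes homology region (CHR), the CCAAT box, and the letters TTTCGCGC, TTTGGCGC or TTTCCCGC of an E2F site, each in either orientation (TTCAAA and ATTGG are the reverse forms). The first 5 are regulated members that hold TTTGAA: CDCA8 (chr1:37692366-37692535, plus strand), CENPA (chr2:26785906-26786075, plus strand), NDC80 (chr18:2571407-2571576, plus strand), SPC25 (chr2:168890411-168890580, minus strand) and ZWINT (chr10:56361240-56361409, minus strand).
CDCA8: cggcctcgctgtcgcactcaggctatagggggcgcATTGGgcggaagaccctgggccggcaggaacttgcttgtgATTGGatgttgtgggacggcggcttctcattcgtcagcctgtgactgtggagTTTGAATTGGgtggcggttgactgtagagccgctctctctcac
CENPA: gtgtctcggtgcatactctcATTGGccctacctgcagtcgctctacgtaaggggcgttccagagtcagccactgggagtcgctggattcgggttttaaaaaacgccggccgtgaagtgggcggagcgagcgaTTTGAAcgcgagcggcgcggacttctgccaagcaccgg
NDC80: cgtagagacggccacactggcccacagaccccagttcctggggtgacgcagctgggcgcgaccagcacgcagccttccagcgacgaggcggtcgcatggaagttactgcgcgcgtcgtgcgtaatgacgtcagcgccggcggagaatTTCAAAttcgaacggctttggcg
SPC25: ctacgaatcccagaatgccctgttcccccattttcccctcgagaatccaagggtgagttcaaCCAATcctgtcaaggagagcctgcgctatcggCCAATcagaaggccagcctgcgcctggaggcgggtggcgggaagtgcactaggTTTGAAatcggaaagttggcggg
ZWINT: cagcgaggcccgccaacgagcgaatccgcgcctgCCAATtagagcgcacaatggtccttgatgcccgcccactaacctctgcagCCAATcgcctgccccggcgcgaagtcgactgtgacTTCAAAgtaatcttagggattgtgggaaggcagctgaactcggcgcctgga

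In CDCA8 the TTTGAA from 23 to 18 bases before the start shares its last letter with a reversed CCAAT. CENPA holds it 18 to 13 bases before the start, ZWINT holds it reversed 31 to 26 bases before, and in NDC80 and SPC25 it lies across the start itself. The next sequence is SPC24 (chr19:11155763-11155932, minus strand), a regulated member with no TTTGAA in its window and the smallest p of the members in Combo against Con. MIS12 (chr17:5486224-5486393, plus strand) and SKA2 (chr17:59155167-59155336, minus strand) are constitutive members without TTTGAA, and CENPC (chr4:67545484-67545653, minus strand) is the constitutive member that holds it.
SPC24: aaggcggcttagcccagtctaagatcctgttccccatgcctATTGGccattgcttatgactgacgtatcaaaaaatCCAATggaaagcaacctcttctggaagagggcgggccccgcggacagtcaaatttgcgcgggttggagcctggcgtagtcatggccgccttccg
MIS12: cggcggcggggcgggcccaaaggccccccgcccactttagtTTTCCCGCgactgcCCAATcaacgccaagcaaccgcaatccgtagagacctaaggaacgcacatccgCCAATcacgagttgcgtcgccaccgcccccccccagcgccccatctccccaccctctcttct
SKA2: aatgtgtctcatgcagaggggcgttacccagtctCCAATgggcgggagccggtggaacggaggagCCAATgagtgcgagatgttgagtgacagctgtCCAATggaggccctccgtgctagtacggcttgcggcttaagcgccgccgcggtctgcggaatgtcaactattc
CENPC: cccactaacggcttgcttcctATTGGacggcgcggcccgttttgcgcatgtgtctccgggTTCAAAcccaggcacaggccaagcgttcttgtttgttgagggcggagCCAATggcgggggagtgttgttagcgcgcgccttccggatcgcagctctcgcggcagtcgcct

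A RefSeq window from 250 bases before to 50 bases after the start was found for 32 members; it was not found for BIRC5, CENPH, CENPL, CENPM, KNL1, KNTC1 and MIS18A. TTTGAA stood in 13 of 23 windows of regulated members (56.5%) and in 1 of 7 windows of constitutive members (14.3%). The same letters stood in 9.27% of the 8898 windows of tested genes and in 15.4% of all 27303 windows. CCAAT was common in both classes, with 17 of 23 regulated windows (73.9%) and 4 of 7 constitutive ones (57.1%) against 36.8% of the windows of tested genes. It stood at 2 or more places in 11 of 23 regulated windows, in 4 of 7 constitutive windows (MIS12 and SKA2 among them) and in 13.7% of the windows of tested genes. The E2F letters stood in 3 of 23 regulated windows, 1 of 7 constitutive windows and 4.84% of those of tested genes. A match is a run of letters and does not show that a factor binds there.

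Kinetochore transcripts were lowest after the combined treatment. The group mean in Combo was below that in Con for 39 of 39 members. The fitted change in Combo against Con was below 0 for 35 of 35 tested members and for 51.5% of all genes tested. Combo was the lowest of the 4 groups for 35 of the 39 members, and that share was not computed over all genes. The FPKM of all members summed to 188, 220 and 172 in Con, 159, 164 and 164 in IR, 202, 178 and 147 in Rx, and 146, 130 and 118 in Combo. The 3 Combo sums lay below every library of the other groups, while the Rx sums ran from above Con 1 to below Con 3. In bulk RNA, fewer cells in the stages that make these transcripts and less of each transcript per cell cannot be told apart.

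**Figure D1:**
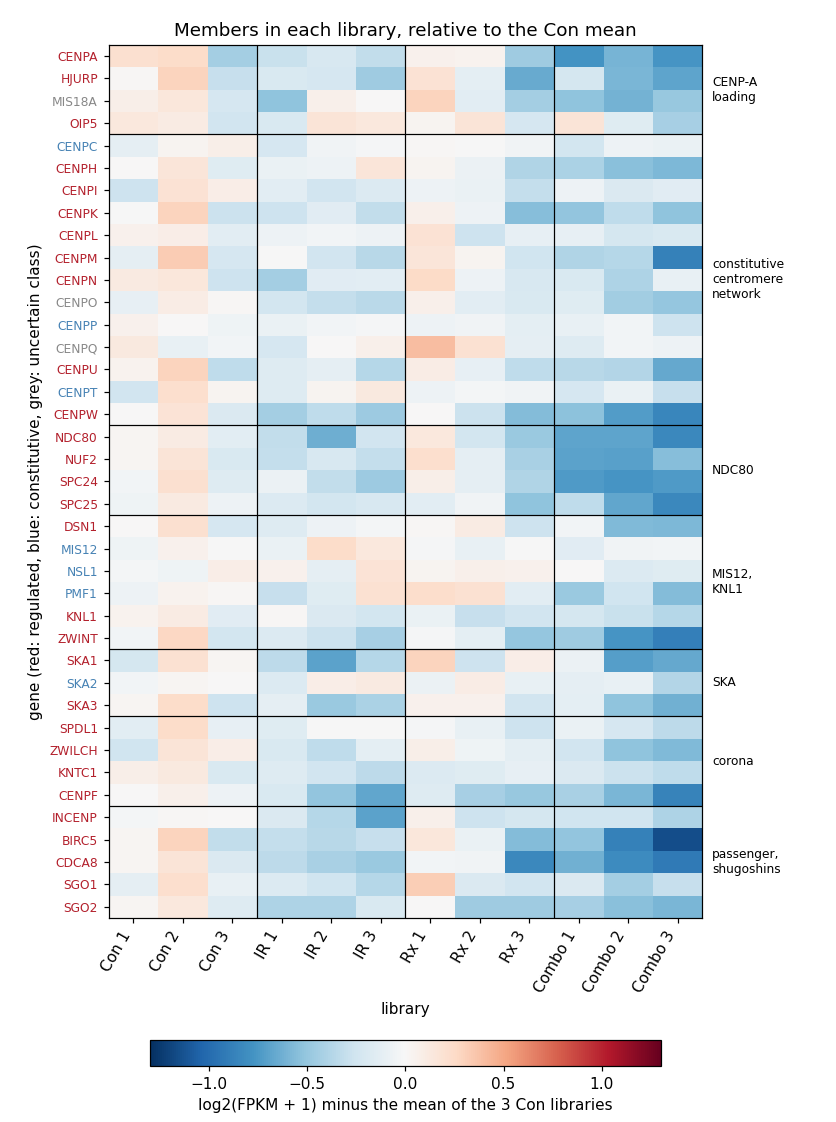
Each cell is the log2(FPKM + 1) of 1 of the 39 members (rows, grouped by complex) in 1 of the 12 libraries (columns), minus the mean of the 3 Con libraries. Blue is below and red above that mean; the Combo columns are blue for most regulated members, Con 2 and Rx 1 are the reddest columns, and the rows of constitutive members are pale.

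No single member passed Benjamini-Hochberg adjustment over the 13038 genes tested (limma, adjusted p under 0.05) in any of the 8 comparisons. Neither did any gene in 7 of them (0%), and 12 genes (0.092%) passed with QTP averaged over radiation. In Combo against Con, 25 of 35 members were lower at an unadjusted p under 0.05 and 0 were higher, where 7.69% of all genes tested were lower at that p and 5.49% higher. The lowest adjusted p of a member was 0.122. The median fitted change of the 35 members was -0.46 on the log2(FPKM + 1) scale, which understates changes of low genes, and that of all genes tested was -0.01. Fitted changes were below 0 for 35 of 35 members, against 51.5% of all genes tested. The count of 25 became 18 without IR 3 and Combo 3, and 15 without Con 2, the library in which 21 of the 29 regulated members had their highest value. Limma voom on recovered reads also passed 0 members in Combo against Con. With the replicate number of the titles as a block, 6 members passed among 90 genes, and 15 among 301 with voom and the block. Same-numbered Con and Combo libraries correlated at -0.007, 0.212 and -0.061 over all genes tested, so the block was not used in the main fit. Between the groups, 20 members had every Combo library below every Con library and 0 the reverse, against 12.8% and 10% of all genes tested.

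Genes of centromeric chromatin were among those with the lower levels. CENPA encodes the histone H3 variant that marks the centromere (chromosome 2, 26764289 to 26801067, hg38). It stood at 3.86, 3.98 and 2.09 FPKM in Con, 2.44, 2.65 and 2.38 FPKM in IR, 3.37, 3.35 and 2.06 FPKM in Rx, and 1.46, 1.77 and 1.48 FPKM in Combo. Combo lay below all other libraries, and Con 3 and Rx 3 lay under the IR libraries and apart from their own replicates. The fitted change in Combo against Con was -0.71 (SE 0.18), with a limma adjusted p of 0.155, and without adjustment p was 0.00244. Its overlap with SLC35F6 on the same strand limits these values.

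HJURP is the chaperone that deposits CENP-A. Its libraries gave 8.41, 10.3 and 6.53 FPKM in Con, 7.13, 6.98 and 5.75 FPKM in IR, 9.57, 7.50 and 4.92 FPKM in Rx, and 6.93, 5.16 and 4.76 FPKM in Combo. Combo 1 overlapped Con 3, so the groups were not apart, and the fitted change was -0.50 (SE 0.21). MIS18A and OIP5 belong to the complex that licenses this deposition. MIS18A averaged 7.88 ± 1.16 FPKM in Con and 5.07 ± 0.259 in Combo (SD, n = 3), a change of -0.54 (SE 0.19). OIP5 was below the filter, with 1.11, 1.06 and 0.610 FPKM in Con, 0.671, 1.16 and 1.10 FPKM in IR, 0.960, 1.15 and 0.650 FPKM in Rx, and 1.15, 0.722 and 0.423 FPKM in Combo. Its groups overlapped in every comparison, from as few as 10 reads a library.

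The constitutive centromere-associated network, which links CENP-A nucleosomes to the outer kinetochore, was mixed. Of its 12 tested members, 6 were lower at an unadjusted p under 0.05 in Combo against Con, beside 7.69% of all genes tested, with a median change of -0.30 and a range from -0.70 to -0.09. The member with the most negative change was CENPW (chromosome 6, 126340174 to 126348875), a histone-fold protein. Its libraries held 11.0, 12.6 and 9.58 FPKM in Con, 7.83, 8.57 and 7.65 FPKM in IR, 11.1, 8.91 and 7.16 FPKM in Rx, and 7.30, 6.27 and 5.66 FPKM in Combo. All IR and Combo libraries were below all Con libraries, and Rx straddled both. The change was -0.70 (SE 0.14) in Combo, -0.42 (SE 0.14) in IR and -0.28 (SE 0.14) in Rx, and the limma adjusted p in Combo was 0.122.

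CENPT, the histone-fold partner of CENPW that recruits NDC80, had another pattern. It held 9.54, 13.6 and 11.8 FPKM in Con, 10.1, 11.9 and 12.7 FPKM in IR, 11.0, 11.3 and 11.2 FPKM in Rx, and 9.77, 10.9 and 9.18 FPKM in Combo. Every group overlapped Con, and Combo differed from Con by -0.20 (SE 0.12) (limma, unadjusted p = 0.108). CENPC, which binds the CENP-A nucleosome directly, held 1.78, 2.09 and 2.19 FPKM in Con, 1.60, 1.91 and 1.98 FPKM in IR, 2.05, 2.01 and 1.91 FPKM in Rx, and 1.56, 1.87 and 1.85 FPKM in Combo. Its Combo libraries lay within or just under the range of the Con libraries, with a change of -0.13 (SE 0.09). CENPP, a constitutive member below the filter, averaged 0.731 ± 0.0687 FPKM in Con and 0.580 ± 0.132 in Combo (SD, n = 3), and its groups overlapped.

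CENPH, CENPI, CENPK and CENPM form the block to which CENPT and CENPC are joined. CENPH had a mean of 11.0 ± 1.27 FPKM in Con and 11.0 ± 1.12 in IR (SD, n = 3). Its mean was 9.87 ± 1.61 FPKM in Rx and 7.34 ± 0.525 in Combo (SD, n = 3). The IR libraries were thus near Con (0.00 log2), while Combo was lower by -0.52 (SE 0.12) against Con and by -0.52 (SE 0.12) against IR. CENPK held 2.98, 3.88 and 2.31 FPKM in Con, 2.33, 2.60 and 2.21 FPKM in IR, 3.19, 2.84 and 1.72 FPKM in Rx, and 1.81, 2.18 and 1.78 FPKM in Combo. Its Combo libraries were below all Con libraries but within the range of Rx. CENPM held 2.86, 4.24 and 2.59 FPKM in Con, 3.15, 2.52 and 2.25 FPKM in IR, 3.64, 3.27 and 2.49 FPKM in Rx, and 2.17, 2.21 and 1.26 FPKM in Combo. Combo 3 was the lowest of its libraries, and the change was -0.55 (SE 0.18). CENPI was the tested regulated member closest to no difference, at -0.13 (SE 0.12) in Combo.

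CENPU belongs to the arm of the network that also holds CENPO, CENPP and CENPQ. Its libraries held 6.94, 8.44 and 5.13 FPKM in Con, 5.85, 6.13 and 4.97 FPKM in IR, 7.25, 6.15 and 5.15 FPKM in Rx, and 5.03, 4.94 and 3.86 FPKM in Combo. Combo was below Con in every library, by -0.47 (SE 0.16). CENPO averaged 2.61 FPKM in Con and 1.81 in Combo, with a change of -0.37, while CENPQ differed by -0.09 and had its highest mean in Rx (3.79 ± 0.856 FPKM, SD, n = 3). CENPN and CENPL, a pair that contacts the CENP-A nucleosome, had changes of -0.23 and -0.18 in Combo, neither at an unadjusted p under 0.05.

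All genes of the NDC80 complex had lower levels after the combined treatment. The complex is a rod of 4 proteins in which NDC80 and NUF2 bind the microtubule and SPC24 and SPC25 hold the inner kinetochore. All 4 were lower in Combo against Con at an unadjusted p under 0.05, as were 7.69% of all genes tested, with changes from -0.75 to -0.61 and a median of -0.69. All 4 were also lower against IR and against Rx at that p, with medians of -0.39 and -0.54, where 11.6% and 6.3% of all genes tested were lower. SPC24 (chromosome 19, 11131520 to 11155808) held 2.67, 3.33 and 2.34 FPKM in Con, 2.56, 2.01 and 1.71 FPKM in IR, 2.96, 2.46 and 1.86 FPKM in Rx, and 1.26, 1.20 and 1.25 FPKM in Combo. The 3 Combo libraries differed by less than 0.1 FPKM among themselves and were below every other library. The change was -0.75 (SE 0.14), with an unadjusted p of 2.51e-04 and a limma adjusted p of 0.122.

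NDC80 held 4.60, 4.90 and 4.00 FPKM in Con, 3.40, 2.54 and 3.62 FPKM in IR, 5.05, 3.66 and 2.92 FPKM in Rx, and 2.40, 2.42 and 2.06 FPKM in Combo. Combo was again below all 9 other libraries, by -0.74 (SE 0.15) against Con. NUF2 held 3.11, 3.56 and 2.53 FPKM in Con, 2.26, 2.49 and 2.26 FPKM in IR, 3.70, 2.73 and 2.01 FPKM in Rx, and 1.51, 1.48 and 1.76 FPKM in Combo. Its Combo libraries were also below all others, and the change was -0.65 (SE 0.15). SPC25 held 3.57, 4.16 and 3.52 FPKM in Con, 3.19, 3.03 and 3.11 FPKM in IR, 3.31, 3.61 and 2.29 FPKM in Rx, and 2.78, 1.97 and 1.65 FPKM in Combo. Combo 1 was above Rx 3, and the change against Con was -0.61 (SE 0.14). NDC80, NUF2 and SPC25 hold TTTGAA in their promoter windows and SPC24 does not, and a link between these letters and the changes was not tested.

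**Figure D2:**
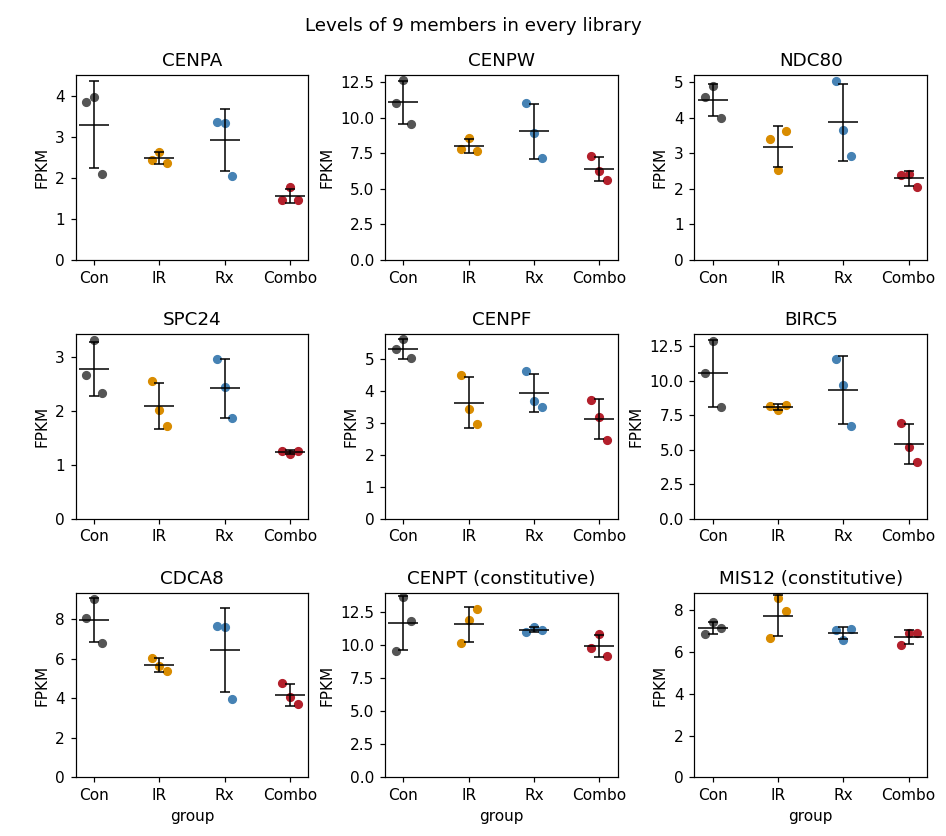
FPKM of 9 members in every library, with 1 panel a gene, groups on the horizontal axis, dots for libraries, and a bar with whiskers for the mean ± SD of 3 libraries. The 7 regulated members shown have Combo below Con without overlap, and for CENPT and MIS12, which are constitutive, Combo overlaps Con. Over all tested members, 16 of 26 regulated and 2 of 6 constitutive ones (PMF1 and SKA2) were lower without overlap.

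The MIS12 complex, the platform between the inner kinetochore and NDC80, held both kinds of subunit. MIS12 itself held 6.85, 7.44 and 7.14 FPKM in Con, 6.68, 8.59 and 7.96 FPKM in IR, 7.04, 6.59 and 7.10 FPKM in Rx, and 6.34, 6.90 and 6.92 FPKM in Combo. The groups overlapped, and the Combo libraries differed from Con by -0.08 (SE 0.08), with a 3-library SD of 0.296 FPKM in Con and 0.330 in Combo. NSL1 differed by -0.11 (SE 0.09) and DSN1, classed as regulated, by -0.40 (SE 0.16). PMF1 was the constitutive member with the largest difference. It held 3.27, 3.63 and 3.53 FPKM in Con, 2.63, 3.01 and 4.12 FPKM in IR, 4.24, 4.14 and 3.08 FPKM in Rx, and 2.21, 2.73 and 2.03 FPKM in Combo. Combo lay below Con and Rx in every library but overlapped IR, and the change against Con was -0.43 (SE 0.14) (limma, unadjusted p = 0.00903).

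KNL1 is the large scaffold on which checkpoint proteins assemble, and ZWINT is its partner. KNL1 was below the filter, at 1.00, 1.08 and 0.743 FPKM in Con, 0.951, 0.697 and 0.635 FPKM in IR, 0.821, 0.573 and 0.627 FPKM in Rx, and 0.655, 0.589 and 0.500 FPKM in Combo. Combo was below Con in every library, from 91 to 185 reads over all libraries. ZWINT held 10.7, 13.4 and 9.19 FPKM in Con, 9.60, 8.84 and 7.92 FPKM in IR, 10.9, 9.97 and 7.49 FPKM in Rx, and 7.68, 6.07 and 5.48 FPKM in Combo. Combo 1 was just above Rx 3 and below all Con libraries, and the change was -0.71 (SE 0.16), with a limma adjusted p of 0.139.

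The SKA complex strengthens the grip of NDC80 on the microtubule. SKA1, its microtubule-binding subunit, held 5.67, 7.97 and 6.92 FPKM in Con, 5.16, 3.81 and 5.05 FPKM in IR, 8.55, 5.45 and 7.26 FPKM in Rx, and 6.42, 3.75 and 3.92 FPKM in Combo. All IR libraries were below all Con libraries, while Combo 1 lay within Con and Rx reached above it. The change was -0.47 (SE 0.19) in IR, 0.03 (SE 0.19) in Rx and -0.48 (SE 0.19) in Combo. SKA3, which contacts NDC80, held 2.10, 2.59 and 1.53 FPKM in Con, 1.81, 1.17 and 1.29 FPKM in IR, 2.16, 2.16 and 1.56 FPKM in Rx, and 1.79, 1.12 and 0.978 FPKM in Combo. Combo 1 again lay within the Con range, and the change was -0.42 (SE 0.17). SKA2, the constitutive core subunit, held 7.004, 7.35 and 7.21 FPKM in Con, 6.26, 7.71 and 7.89 FPKM in IR, 6.75, 7.74 and 6.64 FPKM in Rx, and 6.54, 6.65 and 5.27 FPKM in Combo. IR 3 and Rx 2 were the highest libraries for SKA2, and all Combo libraries were under all Con libraries, with a change of -0.20 (SE 0.10) that had an unadjusted p of 0.0691 (limma).

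The corona is the outer layer that captures microtubules before stable attachment. CENPF, a large coiled-coil protein of the corona whose transcript is a marker of G2 (chromosome 1, 214603195 to 214664588), held 5.32, 5.63 and 5.02 FPKM in Con, 4.51, 3.44 and 2.95 FPKM in IR, 4.62, 3.68 and 3.50 FPKM in Rx, and 3.72, 3.18 and 2.47 FPKM in Combo. It was the member with IR, Rx and Combo each below all Con libraries. The changes were -0.46 (SE 0.14) in IR, -0.36 (SE 0.14) in Rx and -0.63 (SE 0.14) in Combo, where the limma adjusted p was 0.142. Those comparisons share the Con libraries. KNTC1 and ZWILCH, subunits of the complex that brings dynein to the kinetochore, had changes of -0.27 and -0.45 in Combo, and the dynein adaptor SPDL1 one of -0.21.

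The chromosomal passenger complex corrects wrong attachments and holds the kinase Aurora B at the centromere. BIRC5, or survivin (chromosome 17, 78214186 to 78225636), had the most negative change of the members. It held 10.6, 12.9 and 8.10 FPKM in Con, 8.17, 7.88 and 8.25 FPKM in IR, 11.6, 9.74 and 6.70 FPKM in Rx, and 6.95, 5.17 and 4.13 FPKM in Combo. Combo lay below Con and IR in every library, but Combo 1 was above Rx 3, and the change was -0.85 (SE 0.20), with a limma adjusted p of 0.149. CDCA8, or borealin (chromosome 1, 37692418 to 37709719), held 8.06, 9.01 and 6.81 FPKM in Con, 6.05, 5.65 and 5.36 FPKM in IR, 7.67, 7.62 and 3.99 FPKM in Rx, and 4.79, 4.06 and 3.71 FPKM in Combo. Combo was below Con and IR without overlap, Rx 3 lay among the Combo libraries, and the change was -0.79 (SE 0.19).

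INCENP, the scaffold of the same complex, had a less negative fitted change in Combo than BIRC5 and CDCA8, a difference that was not tested. It held 6.06, 6.30 and 6.25 FPKM in Con, 5.30, 4.56 and 3.46 FPKM in IR, 6.55, 4.99 and 5.16 FPKM in Rx, and 5.01, 5.03 and 4.47 FPKM in Combo. IR and Combo were both below Con without overlap, with IR 3 the lowest library. Its change was -0.42 (SE 0.12) in IR and -0.31 (SE 0.12) in Combo, so that Combo stood above IR by 0.11 (SE 0.12). The shugoshins protect centromeric cohesion. SGO2 held 3.28, 3.61 and 2.75 FPKM in Con, 2.18, 2.19 and 2.67 FPKM in IR, 3.22, 2.05 and 2.05 FPKM in Rx, and 2.12, 1.88 and 1.78 FPKM in Combo. IR and Combo lay below Con in every library, and Rx 1 lay within the Con range. Its change was -0.33 (SE 0.13) in IR, -0.31 (SE 0.13) in Rx and -0.52 (SE 0.13) in Combo. SGO1 was below the filter, at 0.609, 1.03 and 0.630 FPKM in Con, 0.542, 0.458 and 0.355 FPKM in IR, 1.18, 0.530 and 0.472 FPKM in Rx, and 0.535, 0.288 and 0.424 FPKM in Combo, from as few as 19 reads. Its IR and Combo libraries lay below its Con libraries, and its Rx libraries overlapped Con.

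**Figure D3:**
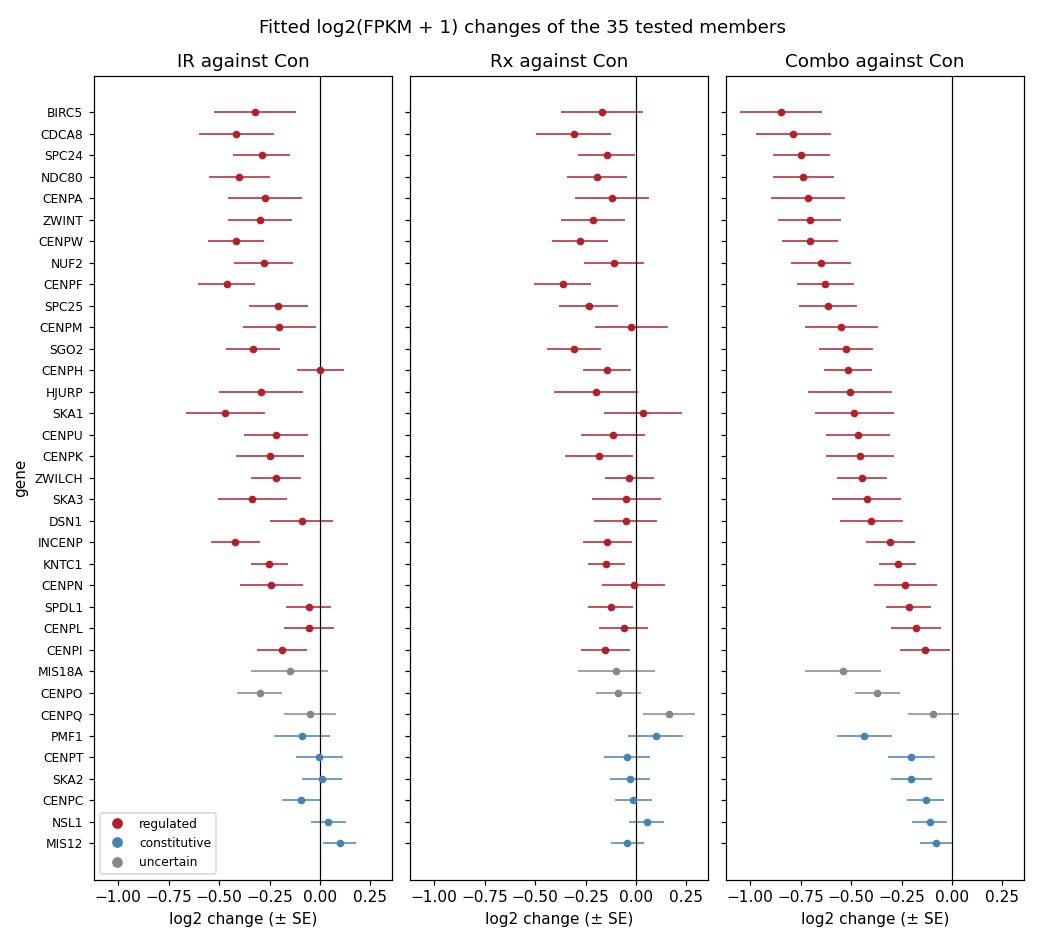
Fitted log2(FPKM + 1) change against Con of the 35 tested members (rows) in IR, Rx and Combo (panels), as points with whiskers of 1 SE. In Combo 35 of 35 points lie left of 0 and the constitutive members other than PMF1 (-0.43) lie between -0.20 and -0.08, a range that also holds CENPI, CENPL and CENPQ.

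The regulated and constitutive subunits were then set side by side, as a description, since the classes were not assigned independently of these data. In Combo against Con, 22 of 26 tested regulated members and 1 of 6 constitutive members (PMF1) were lower at an unadjusted p under 0.05, against 7.69% of all genes tested. Every Combo library lay below every Con library for 16 of 26 regulated and 2 of 6 constitutive members (PMF1 and SKA2), against 12.8% of all genes tested. The median change was -0.51 for regulated and -0.17 for constitutive members. Combo means were a median of 62.5% of the Con mean over the 29 regulated members, with a range from 44.6 to 85.9%, and a median of 85.6% over the 7 constitutive ones, with a range from 66.8 to 94.1%. In each library, the median log2(FPKM + 1) of the regulated members was taken minus that of the constitutive members. This difference was -0.09, 0.01 and -0.17 in Con, -0.22, -0.45 and -0.66 in IR, -0.13, -0.42 and -0.34 in Rx, and -0.30, -0.37 and -0.39 in Combo. All IR and Combo libraries lay below all Con libraries, and Rx 1 lay within the Con range. The IR and Combo libraries overlapped on this measure.

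**Figure D4:**
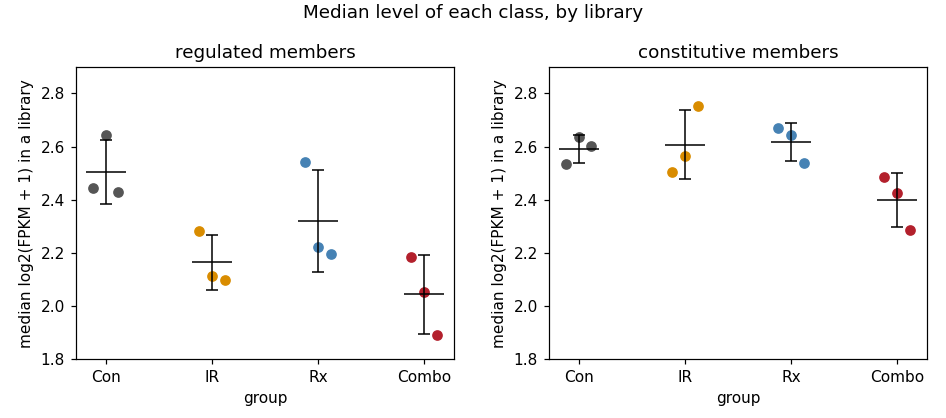
Median log2(FPKM + 1) over the regulated members (left) and the constitutive members (right) in each library, with dots for libraries and a bar with whiskers for the mean ± SD of 3 libraries. Regulated medians are lower in IR and Combo than in Con, while constitutive medians in IR spread around those of Con and are lowest in Combo.

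The difference of the class medians of fitted changes was -0.34 in Combo against Con, and it ran from -0.48 to -0.26 when 1 library was left out. It was -0.28 in IR against Con (-0.18 without Con 2 and -0.18 without IR 3), -0.21 in Combo against Rx (-0.13 without Rx 1, -0.33 without Rx 3 and -0.33 without Combo 1) and -0.12 in Rx against Con, where it ranged from -0.24 to -0.03. In Combo against IR it was -0.05 and turned to 0.05 without IR 1. Within the regulated class, the median change in Combo against Con was -0.61 for the 13 tested members with TTTGAA, -0.46 for the 8 without it and -0.52 for the 5 without a window. The ranges of the first (-0.79 to -0.21) and of the second (-0.75 to -0.13) overlapped almost wholly, and the difference was not tested.

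Ratios of subunits of the same complex, on a per-length scale, are described for 3 pairs that were chosen after their values had been seen. In an exact permutation test of Combo against Con, p was 0.1 for CENPW to CENPT and 0.3 for each other pair. The adjusted p of this exact permutation test was 0.3 for all 3 pairs. With 3 libraries a group the exact permutation test cannot give p under 0.1, so it cannot decide whether a ratio differed. The ratio of CENPW to CENPT FPKM was 1.16, 0.927 and 0.810 in Con and 0.747, 0.578 and 0.616 in Combo, with no overlap. The means were 0.965 ± 0.178 and 0.647 ± 0.0885 (SD, n = 3). The ratio of SKA1 to SKA2 was 0.951 ± 0.137 in Con and 0.763 ± 0.209 in Combo, and that of DSN1 to MIS12 was 1.00 ± 0.151 and 0.790 ± 0.257 (SD, n = 3), and in both pairs Combo overlapped Con.

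**Figure D5:**
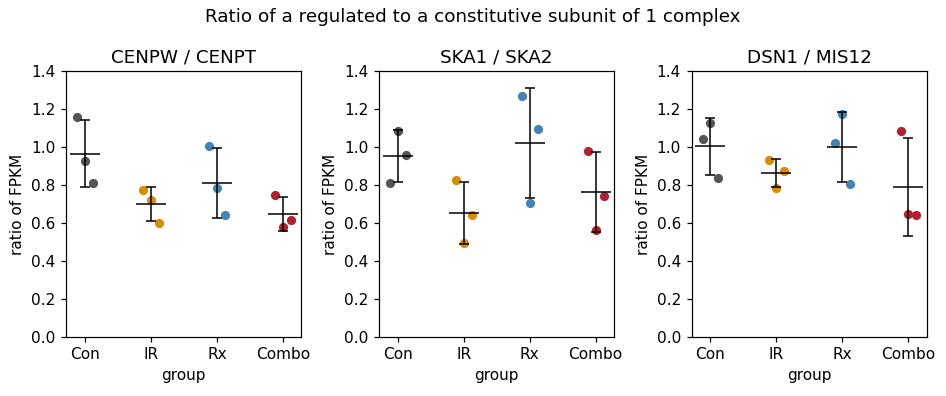
Ratio of the FPKM of a regulated subunit to that of a constitutive subunit of the same complex in each library, for 3 pairs (panels), with dots for libraries and a bar with whiskers for the mean ± SD of 3 libraries. The CENPW to CENPT ratio is lower in every IR and Combo library than in Con; Combo overlaps Con in the other pairs.

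Radiation alone gave smaller differences. In IR against Con, 9 of 35 members were lower at an unadjusted p under 0.05 and 0 were higher, against 3.17% and 3.69% of all genes tested. The median change was -0.24, compared with 0.01 over all genes tested, and 31 members had a fitted change below 0 (47.4% of all genes tested did). The most negative changes were those of SKA1, CENPF, INCENP, CENPW and CDCA8, from -0.47 to -0.42. Every IR library was below every Con library for 10 members and above it for 0, against 4.98% and 5.56% of all genes tested. The count of 9 was 2 without Con 2, 4 without IR 2 and 16 without Con 3, and it was 6 without IR 3 and Combo 3. The median was -0.15 without Con 2. With the replicate number as a block, 0 members passed the adjusted threshold, among 0 genes in all. Rescaling to TPM shifted the median of all genes by -0.10 and moved the members' median to -0.40.

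QTP alone gave few differences that stood out from the spread. In Rx against Con, 2 of 35 members (CENPF and SGO2) were lower at an unadjusted p under 0.05 and 0 higher, against 0.897% and 2.36% of all genes tested. The median change was -0.11, compared with 0.00 over all genes tested, and 31 members had a fitted change below 0, as did 48.3% of all genes. CENPF was the 1 member with every Rx library below every Con library and 0 had the reverse, against 3.18% and 4.6% of all genes tested. With the replicate number as a block, which these same-numbered libraries allow, 0 members passed the adjusted threshold, among 0 genes in all. In that fit 4 members were lower at an unadjusted p under 0.05, and the share of all genes lower in it was not counted. The Rx libraries were uneven: 7 of the 29 regulated members had their highest value of all 12 libraries in Rx 1, and Rx 3 was among the low libraries for CDCA8, HJURP and BIRC5. The count of 2 was 0 without Con 2, Rx 2 or Rx 3, it was 5 without Con 3 or Rx 1, and it was 1 without Con 1, IR 2 or any 1 Combo library. The median was -0.01 without Rx 3, -0.02 without Con 2, -0.18 without Con 3 and -0.20 without Rx 1, so its size rested on single libraries.

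Adding QTP to radiation was tested as Combo against IR. At an unadjusted p under 0.05, 9 of 35 members were lower and 0 higher, against 11.6% and 5.91% of all genes tested, and the median was -0.21 against -0.01. Fitted changes were below 0 for 32 members, against 52.6% of all genes tested. The 9 were CENPA, CENPH, NDC80, NUF2, SPC24, SPC25, PMF1, ZWINT and BIRC5. Non-overlap was more frequent, with 14 members whose Combo libraries were all below all IR libraries and 0 the reverse, against 11.6% and 8.53% of all genes tested, and all 14 were regulated. The count of 9 was 5 without IR 3, 3 without Combo 3 and 2 without both. With the replicate number as a block it was higher, as given at the end, and 0 members passed the adjusted threshold, among 0 genes in all. Same-numbered IR and Combo libraries all correlated over 0.1 over the members, but not over all genes tested. After rescaling to TPM, 5 members were lower without overlap and 0 higher, against 7.6% and 9.01% of all genes tested. Without IR 1, CENPH and MIS12 passed the adjusted threshold, among 956 genes that did.

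Adding radiation to QTP was tested as Combo against Rx. Here 18 of 35 members were lower at an unadjusted p under 0.05 and 0 higher, against 6.3% and 2.81% of all genes tested. The median was -0.35 against -0.01 over all genes, and fitted changes were below 0 for 34 members, against 54% of all genes tested. In 14 members every Combo library was below every Rx library and in 0 above, against 12.7% and 8.26% of all genes tested. The 14 included 9 of 26 tested regulated members and 4 of 6 constitutive ones (CENPC, CENPT, NSL1 and PMF1). The count of 18 was 9 without Rx 1, 11 without Combo 2, 10 without Combo 3, and 9 without IR 3 and Combo 3. After rescaling to TPM, 8 members were lower without overlap and 0 higher, against 5.09% and 16.8% of all genes tested.

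Whether the treatments added up was tested by the interaction, the Combo change minus the sum of the IR and Rx changes. At an unadjusted p under 0.05, 2 of 35 members were lower and 0 higher, against 5.31% and 2.32% of all genes tested, so the share of members was close to that of all genes. Fitted values were below 0 for 28 members, against 55.1% of all genes tested. The members' median was -0.13, that of all genes tested -0.03, and rescaling to TPM shifted the median of all genes by 0.18 and turned the members' median to 0.03. The median was also -0.03 without Rx 1, -0.06 without Combo 3, -0.08 without Con 3, -0.09 without Con 1 and -0.22 without Rx 3. The 2 members were CENPH, at -0.37 (SE 0.17), and PMF1, at -0.44 (SE 0.19), and the limma adjusted p was 0.609 for both. The count was 5 without Rx 3, and 0 or 1 without any 1 of Con 1, Con 2, Con 3, IR 3, Rx 1, Rx 2, Combo 2 and Combo 3. By class, the median interaction was -0.06 over 26 regulated members and -0.17 over 6 constitutive ones.

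With radiation averaged over both QTP arms, 22 of 35 members were lower at an unadjusted p under 0.05 and 0 higher, against 5.17% and 3.34% of all genes tested, with a median of -0.29. Fitted changes were below 0 for 34 members, against 51.5% of all genes tested. With QTP averaged over both radiation arms, 11 members were lower and 0 higher, against 6.17% and 5.21%, with a median of -0.18. Fitted changes were below 0 for 32 members, against 51.9% of all genes tested. The 11 were regulated members and included all 4 genes of the NDC80 complex. That count was 6 without Con 2, Rx 3 or Combo 3, 7 without IR 3, and 6 without IR 3 and Combo 3. The median was -0.11 without Con 2 and -0.12 without Rx 3 or Combo 3.

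Other genes of the pathway were taken from lists of kinetochore motors and checkpoint proteins, cohesin regulators and cell cycle genes. In Combo against Con, 12 of 23 other kinetochore and checkpoint genes were lower at an unadjusted p under 0.05 and 0 higher (7.69% and 5.49% of all genes tested were), with a median of -0.27. CENPE, a kinetochore motor, held 3.06, 3.50 and 2.94 FPKM in Con, 2.08, 1.99 and 1.53 FPKM in IR, 2.61, 2.32 and 2.15 FPKM in Rx, and 2.00, 1.93 and 1.42 FPKM in Combo. BUB1, a checkpoint kinase, averaged 6.13 ± 1.33 FPKM in Con and 3.44 ± 0.662 in Combo (SD, n = 3). AURKB, the kinase of the passenger complex, differed by -0.76 (SE 0.21), beside -0.85 for BIRC5, -0.79 for CDCA8 and -0.31 for INCENP. Of 14 cohesin and separase genes, 4 were lower at that p, again beside 7.69% of all genes, among them PTTG1 (securin) at -0.79 and the cohesin protector CDCA5 at -0.73, and the median of the list was -0.06.

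G2/M genes had a more negative median change than the 35 tested members (-0.46) and the 26 regulated ones among them (-0.51). The median of the NDC80 complex was -0.69. Of 14 G2/M genes, 13 were lower at an unadjusted p under 0.05 in Combo against Con, where 7.69% of all genes tested were, with a median of -0.66. Of 16 G1/S genes 12 were lower, with a median of -0.40. The kinesin KIF20A differed by -0.92 (SE 0.18), HMMR, a spindle protein, by -0.61 (SE 0.12) and the proliferation marker MKI67 by -0.79 (SE 0.21). The replication genes GINS2 and MCM4 differed by -0.74 (SE 0.16) and -0.56 (SE 0.14). Among 13 cell cycle transcription factors, 2 were lower and 1 higher at that p (7.69% and 5.49% of all genes tested), with a median of -0.13. FOXM1, an activator of G2/M promoters, held 7.15, 9.13 and 6.31 FPKM in Con, 5.18, 4.85 and 3.73 FPKM in IR, 6.71, 6.13 and 5.00 FPKM in Rx, and 4.11, 4.16 and 3.52 FPKM in Combo. Every IR and Combo library was below every Con library. MYBL2, which works with MuvB, differed by -0.55 (SE 0.25), with an unadjusted p of 0.0539 (limma). The repressor E2F7 had a higher mean, with a change of 0.34 (SE 0.10).

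Markers of cell type differed as well. Of the 5 mesothelial markers above the filter, 3 were lower in Combo against Con at an unadjusted p under 0.05 (7.69% of all genes tested were), with a median of -0.48, and the summed level of all 10 ran from 1039 to 1309 FPKM in Con and from 700 to 1043 in Combo. The summed level of the 12 markers of other cell types was 5.20 to 6.59 FPKM in Con and 5.96 to 9.70 in Combo, nearly all of it LUM and PDGFRB; CD3E and LYZ were listed at 0 in all libraries. The part of these differences in the member values was not tested.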

How the data were processed

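The 12 libraries were made with a NEBNext Ultra kit from RNA extracted with Trizol and spin columns, and sequenced on a NovaSeq6000, per the labels' protocols. The authors deposited FPKM for 58735 genes on hg38 (build per the submitters' processing notes). Which aligner and counter were used, whether strand was used, and how libraries were scaled is not given in the sources used here. Multiplied by gene length, 100% of the FPKM values were whole numbers of reads (tolerance 0.01 of a read), which gave the read totals. At 1 FPKM, a transcript of 1 kb corresponds to 13.3 to 19.1 reads. Replicates differed by a chi-square per degree of freedom of 7.09 to 39.9, so none was a repeat. Groups and replicate numbers came from the titles, and 0 value columns were left without a sample.

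Group means of log2(FPKM + 1) were fitted by limma (version 3.58.1, R 4.3.3) over the 13038 genes averaging 1 FPKM or more, all 12 libraries sharing 1 spread, with a variance trend, two-sided tests and Benjamini-Hochberg adjustment over all genes (threshold 0.05). There were 8 comparisons. The fit was also run on simulated reads, drawn independently for each library with the same dispersion for every gene. That setting is simpler than these libraries, so the run does not show how the fit performs on them. The titles number the libraries of each group. Libraries with the same number were taken to deviate together where all 3 pairs correlated over 0.1. Over all genes tested, this held for Con with IR (0.161 to 0.354) and Con with Rx (0.191 to 0.282). It did not hold for Combo with any other group, so the main fit has no replicate block. Over the members alone, it held for IR with Combo (0.221 to 0.469) and Con with Rx (0.235 to 0.644), but not for Con with IR. Lists were described by counts and medians, with no list test. Promoter motifs were searched on both strands of RefSeq windows of 300 bases.

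The members, their classes and the other gene lists were chosen with earlier results of these data known. By the rule for named genes, a fixed set of members across the roles was given in every library; of the other lists, the 2 genes with the smallest p in Combo against Con were named for each proliferation list, and MKI67, AURKB, FOXM1 and MYBL2 always. Alternatives were a pseudocount of 0.1, the filter removed or raised to 5 FPKM, TPM, median-of-ratios or quantile scaling, fits of the compared groups alone, no variance trend, library quality weights, protein-coding genes alone, voom on recovered reads, other class assignments, the replicate number as a block, and libraries left out. Voom with the block and the ratios of subunits were chosen after seeing the data.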

Additional observations from a re-analysis of the deposited data

How the results depend on the processing

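Every median of the members kept its sign under every alternative run, except the interaction. Low read numbers limit OIP5 and SGO1 (as few as 10 and 19 reads), while CENPP and KNL1, also under the filter, had 81 or more. With each library left out in turn, members past the adjusted threshold stayed at 0 in each comparison except Combo against IR (0 to 2). The number lower at an unadjusted p under 0.05 ran from 2 to 16 for IR, 0 to 5 for Rx and 15 to 26 for Combo, each against Con. It ran from 3 to 12 for Combo against IR, 9 to 21 for Combo against Rx, 0 to 5 for the interaction and 6 to 15 for QTP averaged. The regulated minus constitutive median ran from -0.1401 to 0.04788 for Combo against IR (0.04788 without IR 1) and from -0.06232 to 0.2085 for the interaction (-0.06232 without Rx 3).

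With a mean of at least 5 FPKM, 14 members were tested, and the number lower at an unadjusted p became 4 for IR, 0 for Rx and 11 for Combo against Con, 3 for Combo against IR, 9 for Combo against Rx, 1 for the interaction, 5 for QTP averaged and 9 for radiation averaged. Without IR 3 and Combo 3 it became 1 for Rx against Con, 2 for Combo against IR, 9 for Combo against Rx, 0 for the interaction and 6 for QTP averaged. Rescaling to TPM gave a median of -0.40 for IR against Con and 0.03073 for the interaction, with 4 members lower for Combo against IR and 0 for the interaction. The interaction had 0 such members with no filter and 1 with quantile normalization or no variance trend. Rx against Con had 1 with quantile normalization, with only the compared groups in the fit and with quality weights. Apart from the smaller number of members tested, the cause was not tested.

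Library quality weights did not converge and gave IR 2 a weight of 17.4, against 0.346 and 0.295 for IR 1 and IR 3. With them, 10 members passed the adjusted threshold for IR against Con (1013 genes in all, of 13038 tested) and 8 for Combo against Con (178 genes in all). For Combo against IR 15 passed (4496 genes in all), for QTP averaged 2 (777 genes) and for radiation averaged 14 (359 genes). The unadjusted numbers were 16 for IR against Con, 19 for Combo against IR and 6 for the interaction. Voom on recovered reads moved the median for Combo against Con to -0.58 and its regulated minus constitutive median to -0.49.

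Replicate numbers were shared between groups. Over all genes tested, the correlations of the 18 same-numbered pairs ran from -0.21 to 0.35, with 11 over 0.1. Those of Con with Combo were -0.007, 0.212 and -0.061, so the numbers were not taken as pairs for comparisons with Combo. Over the members alone, those of IR with Combo were 0.469, 0.221 and 0.294. With the replicate block, 6 members passed for Combo against Con (BIRC5, CDCA8, CENPF, CENPW, SPC24 and ZWINT, among 90 genes). The unadjusted numbers with the block were 4 for Rx against Con, 15 for Combo against IR and 1 for the interaction. The shares of all genes at that unadjusted p were not counted for the block. Voom with the replicate block passed 15 members for Combo against Con (301 genes in all) and 6 for radiation averaged (79 genes in all). Its median for Combo against Con was -0.58, and its unadjusted number for IR against Con was 17.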
